A study of Homo sapiens with 4 samples.

Results

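The kallikrein-related peptidases are secreted serine proteases encoded by a run of neighbouring genes on the long arm of chromosome 19. The 7 members described here are KLK5, KLK6, KLK7, KLK8, KLK10, KLK11 and KLK13, chosen by name, and all 7 were found among the 50653 rows of the expression table. RNA was sequenced from BT-20 and MDA-MB-468, human cell lines derived from triple-negative breast carcinomas. Each line stably carried a control shRNA or an shRNA against QPRT, the quinolinate phosphoribosyltransferase of NAD synthesis. An shRNA is a short hairpin RNA from which the cell makes a small RNA that leads to cleavage of its target mRNA. The data comprise 4 libraries, 1 for each combination of line and shRNA, so the groups are BT-20 with control shRNA, BT-20 with QPRT shRNA, MDA-MB-468 with control shRNA and MDA-MB-468 with QPRT shRNA. No group had a replicate. The cells of every group carried a hairpin construct, and the knockdown was measured with 1 QPRT hairpin per line, so an effect of that hairpin on other transcripts cannot be told apart from an effect of QPRT.

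These peptidases are made as inactive proenzymes and are activated outside the cell by removal of a short propeptide. In skin, KLK5, KLK7 and KLK8 take part in a proteolytic cascade that cleaves desmosomal adhesion proteins during shedding of the outer layer. KLK5 can activate itself and other family members, and LEKTI (the product of SPINK5) inhibits it. Several of these genes are known to be expressed in mammary epithelium and to vary widely between breast carcinomas, and KLK10 was first described as a gene whose expression is lost in many breast cancer lines.

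The members lie on the minus strand in the order KLK5, KLK6, KLK7, KLK8, KLK10, KLK11 and KLK13, within a run of 16 KLK genes that spans 265 kb (chr19:50819148-51084245, GENCODE 29 on GRCh38). KLK6, a trypsin-like protease, occupies chr19:50958631-50969673. KLK5 (chr19:50943303-50953093) starts 16.6 kb from the start of KLK6, and KLK7 (chr19:50976482-50984099), a chymotrypsin-like protease, starts 14.4 kb from it on the other side. KLK8 (chr19:50996007-51002711), also known as neuropsin, starts 18.6 kb beyond KLK7, and KLK10 (chr19:51012739-51020175) a further 17.5 kb away. KLK11 (chr19:51022216-51028039) starts 7.9 kb from KLK10, and KLK13 (chr19:51056206-51065114) 37.1 kb from KLK11.

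The 250 bases upstream of the RefSeq start (GRCh38.p14, minus strand, written 5′ to 3′) are shown for KLK6 and for its 2 nearest neighbours, because the comparison below turns on whether these neighbours moved with KLK6. Capitals mark matches on either strand to GGGCGG (Sp1) or CCAAT. The windows are chr19:50953039-50953288 for KLK5, chr19:50969592-50969841 for KLK6 and, for the first of 3 listed starts, chr19:50983918-50984167 for KLK7.
KLK5: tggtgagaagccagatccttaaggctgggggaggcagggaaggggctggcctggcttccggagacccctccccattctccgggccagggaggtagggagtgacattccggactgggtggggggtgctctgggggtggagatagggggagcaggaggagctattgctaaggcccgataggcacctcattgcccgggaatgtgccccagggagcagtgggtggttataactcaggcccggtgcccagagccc
KLK6: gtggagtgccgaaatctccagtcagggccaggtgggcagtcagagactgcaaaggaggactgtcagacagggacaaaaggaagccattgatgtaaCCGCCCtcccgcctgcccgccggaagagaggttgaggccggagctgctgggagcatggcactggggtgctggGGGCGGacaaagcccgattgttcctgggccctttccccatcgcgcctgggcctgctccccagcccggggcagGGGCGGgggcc
KLK7: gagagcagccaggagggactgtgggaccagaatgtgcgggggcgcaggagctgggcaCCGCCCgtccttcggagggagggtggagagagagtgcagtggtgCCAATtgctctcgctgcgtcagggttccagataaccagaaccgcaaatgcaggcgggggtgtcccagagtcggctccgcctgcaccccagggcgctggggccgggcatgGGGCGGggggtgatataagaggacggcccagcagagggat

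The KLK6 window held 3 GGGCGG matches, which began at positions -155, -83 and -11 from the start. The KLK7 window held 2 GGGCGG matches, at -193 and -40, and a CCAAT match at -149. The KLK5 window held none of the letters searched. RefSeq windows, counted with the first 50 transcribed bases, were found for 6 of the 7 members and not for KLK8. The letters of the TATA box, searched as TATAAA, matched in none of the 11 windows of these 6 genes. Neither TGANTCA, the AP-1 motif, nor the E-box CACGTG matched in any of them. Of 27305 genes with a window, 42.3% held GGGCGG, 33% CCAAT, 11.1% TATAAA, 6.6% TGANTCA and 6.49% CACGTG. No match of 1 motif overlapped that of another in the windows shown, and a match is a description of the letters only.

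Levels are given as FPKM, the fragments of a gene per length of its transcripts and per total of the library, a scale per length on which genes can be compared. The libraries held 10321996 to 10945947 fragments, and the number of fragments behind each value was recovered from the FPKM. QPRT itself went from 249 FPKM under the control hairpin to 40.5 under the QPRT hairpin in BT-20, while in MDA-MB-468 it went from 117 to 18.3, so it was lower in both libraries labelled as silenced. All 10 breast epithelial markers passed the expression filter, with summed levels of 7369 to 10276 FPKM, and the leukocyte markers summed to at most 0.34 FPKM. Markers of plasma cells, of intestinal epithelium and of gastric epithelium, cell types that no label names, moved with the shRNA. Of these lists, 4 of 5, 3 of 7 and 2 of 6 genes passed the filter, and the limma knockdown fit called 3 (IGHA1, IGHM and JCHAIN), 3 (FABP1, PIGR and SLC26A3) and 2 (PGC and TFF2) of them lower, where 0.363% of all tested genes were called lower. These 8 calls fell to 0 without the GC content and length trend, without the block for cell line, and with no expression filter. None of the markers of these 3 lists was at 0 in all libraries. In BT-20 their summed levels went from 35.4 to 17.1, from 26.8 to 11.9 and from 12.9 to 4.11 FPKM, and in MDA-MB-468 from 86.1 to 16.6, from 60 to 10.4 and from 27.2 to 3.94 FPKM. These lists were thus lower with QPRT shRNA, the opposite direction to most of the kallikrein genes below, and their part in the results was not tested.

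KLK5 was by far the most abundant member and KLK6 the next in all 4 libraries. KLK5 stood at 270 FPKM (BT-20, control shRNA), 313 FPKM (BT-20, QPRT shRNA), 315 FPKM (MDA-MB-468, control shRNA) and 392 FPKM (MDA-MB-468, QPRT shRNA). It accounted for 70.6% to 86.9% of the summed level of the 7 members and ranked between 246 and 396 among all rows of a library.

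KLK6 had 50.8, 105, 38.2 and 48.7 FPKM in the same order of libraries. The BT-20 library with QPRT shRNA was the highest, and the other 3 lay within a narrow range. The KLK6 share of the summed level was 23.7% in that library and 10.5% to 15.2% in the others.

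KLK7 and KLK8, the next genes along, were far lower. KLK7 had 2.79, 5.5, 2.22 and 3.68 FPKM, from 39, 79, 32 and 50 fragments. KLK8 had 9.9, 19.3, 2.01 and 3.95 FPKM, from 67, 134, 14 and 26 fragments. For KLK7 both libraries with QPRT shRNA were above both control libraries, whereas for KLK8 both BT-20 libraries were above both MDA-MB-468 libraries.

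KLK10 had the reverse pattern between the lines, with 0.278 and 0.162 FPKM in BT-20 (5 and 3 fragments) against 5.02 and 12.3 FPKM in MDA-MB-468 (93 and 215 fragments). KLK11 was listed at 0 in 3 libraries and had 1 fragment (0.0922 FPKM) in the control library of MDA-MB-468. KLK13 had 1 fragment in BT-20 with control shRNA (0.09 FPKM), 1 in MDA-MB-468 with QPRT shRNA (0.0926 FPKM) and none in the other 2 libraries. A count of 0 at this depth allows up to 3 fragments, or 0.277 to 0.293 FPKM for KLK11 and 0.262 to 0.278 FPKM for KLK13, so neither gene could be compared between groups. Thus 5 members (KLK5, KLK6, KLK7, KLK8 and KLK10) passed a mean of 1 FPKM and entered the comparisons over 14321 genes.

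**Figure D1:**
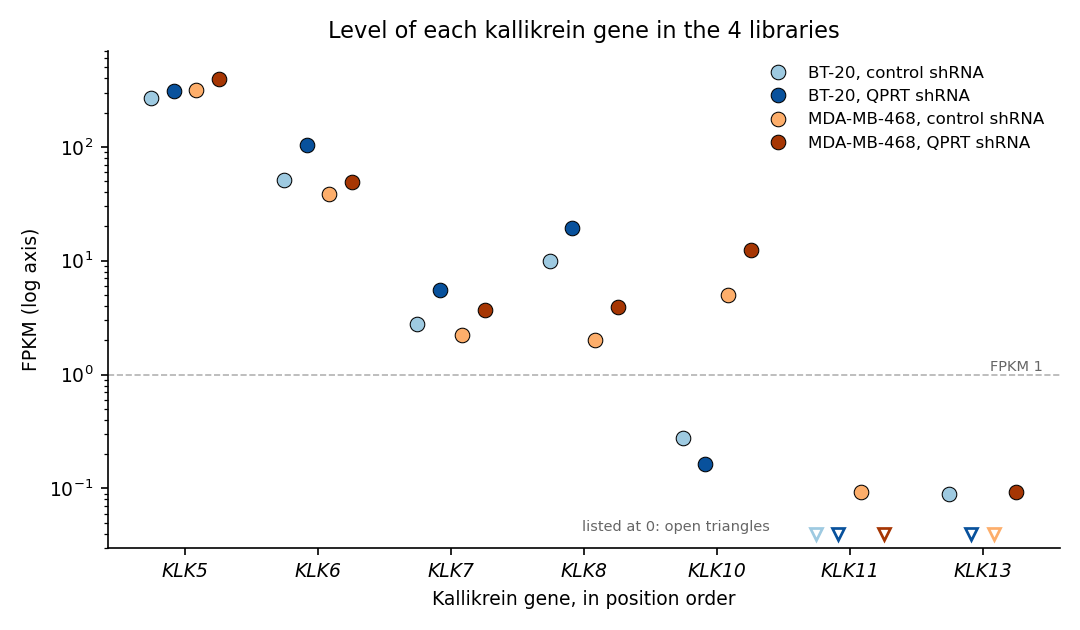
FPKM (log axis) of the 7 members in position order, 1 point per library, with open triangles for libraries listed at 0 and a dashed line at 1 FPKM. KLK5 lies between 270 and 392 FPKM in all 4 libraries, KLK8 is higher in BT-20, KLK10 is higher in MDA-MB-468, and KLK11 and KLK13 have at most 1 fragment in any library.

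The order of the levels was KLK5, KLK6, KLK8, KLK7 and KLK10 in both BT-20 libraries and KLK5, KLK6, KLK10 in both MDA-MB-468 libraries, followed there by KLK7 and KLK8, which did not differ beyond counting error. The ratio of KLK7 to KLK8 in the BT-20 libraries was 0.282 (exact 95% interval 0.185 to 0.424) and 0.285 (0.213 to 0.38). In the MDA-MB-468 libraries it was 1.11 (0.574 to 2.24) and 0.931 (0.569 to 1.56). All such intervals cover the counting of fragments only, not the spread between cultures or the transcript lengths used. Here the lengths were annotated means, 1316 bases for KLK7 and 637 bases for KLK8.

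The comparison of QPRT shRNA with control shRNA within each line shows how the cluster stood after silencing. In RNA from whole cultures, more expressing cells and more RNA per cell cannot be told apart. In BT-20, KLK6, KLK8 and KLK7 were each about as much higher with QPRT shRNA, KLK5 was slightly higher, and KLK10 rested on 8 fragments. The ratio of fragments per library total was 2.07 for KLK6 (95% counting interval 1.89 to 2.27), 1.95 for KLK8 (1.44 to 2.65) and 1.97 for KLK7 (1.33 to 2.97), intervals that overlap. The KLK5 ratio was 1.16 (1.11 to 1.21), below the intervals of all 3. For KLK10 it was 0.584 (0.0907 to 3), an interval that holds both a fall and a rise.

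Expressed as differences of log2(FPKM + 1), a scale that shrinks the differences of low genes, KLK6 differed by 1.04, KLK8 by 0.90, KLK7 by 0.78, KLK5 by 0.21 and KLK10 by -0.14 in BT-20. With 2-fold or more on this scale counted as changed, 1 of the 5 members, KLK6, passed upwards and none downwards, where 1.05% of all tested genes passed upwards and 0.649% downwards. KLK6 lay at the limit. When each library was scaled to its upper quartile over genes above 0 in any library, an alternative chosen after seeing the data, its difference was 0.93 and no member passed. The median of the 5 members was 0.78, beside 0.05 for all tested genes. Among the 14321 genes ordered from the largest rise, KLK6 stood at place 131, KLK8 at 213, KLK7 at 340, KLK5 at 4313 and KLK10 at 10568.

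In MDA-MB-468 all 5 members had higher values with QPRT shRNA, as did 51.5% of all tested genes, but KLK10 and not KLK6 led. The fragment ratio was 2.45 for KLK10 (1.91 to 3.16), 1.97 for KLK8 (0.991 to 4.08) and 1.66 for KLK7 (1.04 to 2.67). KLK6 had a ratio of 1.28 (1.13 to 1.44) and KLK5 one of 1.25 (1.2 to 1.3). The interval of KLK8, which had 14 and 26 fragments, includes a ratio of 1.

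The log2(FPKM + 1) differences were 1.14 for KLK10, 0.72 for KLK8, 0.54 for KLK7, 0.34 for KLK6 and 0.32 for KLK5. Of the 5 members 1, KLK10, passed 2-fold upwards and none downwards, where 1.03% of all tested genes passed upwards and 0.866% downwards. The median of the 5 members was 0.54 beside 0.01 for all tested genes, and their places from the largest rise were 97 for KLK10, 423 for KLK8, 924 for KLK7, 2094 for KLK6 and 2381 for KLK5. The counting intervals of the KLK6 ratio in BT-20 and MDA-MB-468 did not overlap, and those of KLK7 and KLK8 did. Whether any of these effects differed between the lines could not be tested with 1 library per group.

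**Figure D2:**
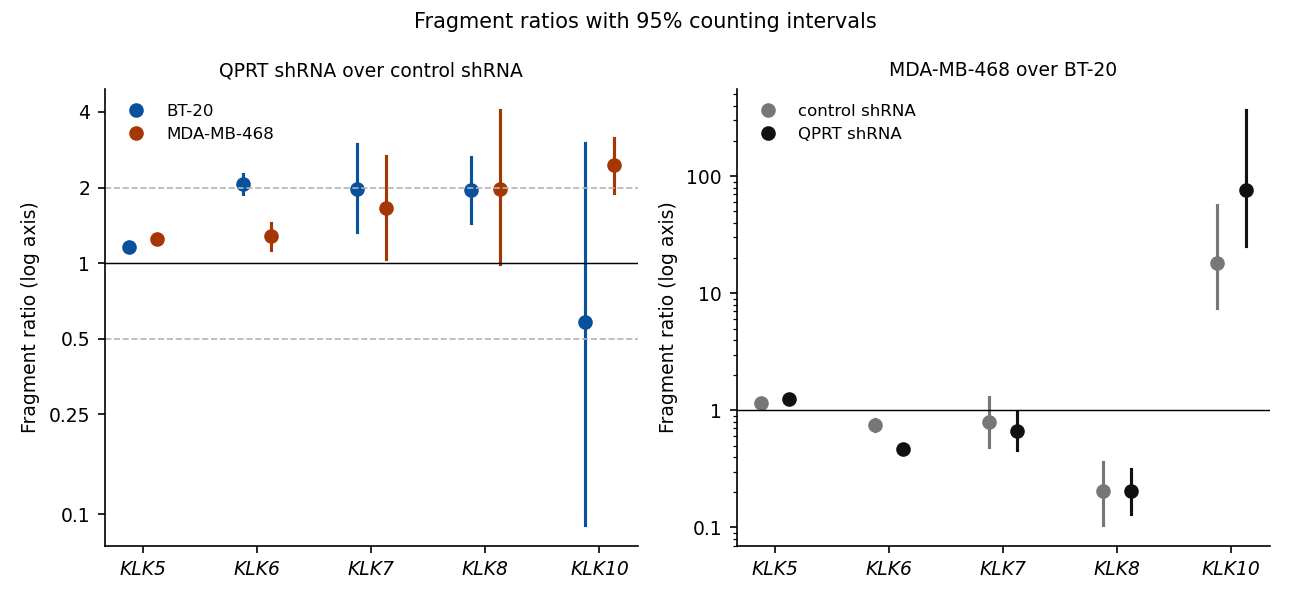
Ratio of fragments per library total (log axes) for the 5 members with a mean of at least 1 FPKM, as points with exact 95% counting intervals, with dashed lines at 2-fold up and down in the left panel. On the left KLK6 has ratios of 2.07 (BT-20) and 1.28 (MDA-MB-468), and on the right KLK8 has 0.203 and 0.205 and KLK10 has 18 and 75.7 in MDA-MB-468 over BT-20.

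Both lines were then used as the only replicates of the knockdown in a limma fit with the line as a block, which has 1 residual degree of freedom. No member passed an adjusted p of 0.05, where 90 genes, or 0.628% of those tested, did. At an unadjusted p under 0.05 there were 3 members (KLK6, KLK7 and KLK8) and 687 genes. Limma-voom on the recovered fragments also called no member. The fitted limma difference was 0.69 for KLK6 (SE 0.208, adjusted p = 0.122) and 0.81 for KLK8 (SE 0.265, adjusted p = 0.221), each higher with QPRT shRNA in both lines. It was 0.66 for KLK7 (SE 0.284, limma adjusted p = 0.78), also higher in both. KLK5 had 0.26 (SE 0.189) and KLK10 0.50 (SE 0.293), both with a limma adjusted p of 1. Over all settings tried, the limma adjusted p of the knockdown ranged from 0.103 to 1 for KLK6 and from 0.114 to 1 for KLK8. A rise of the cluster over both lines was therefore not established for any single gene by this test, although 4 of the 5 genes had higher values with QPRT shRNA in both lines, as did 26.2% of all tested genes.

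**Figure D3:**
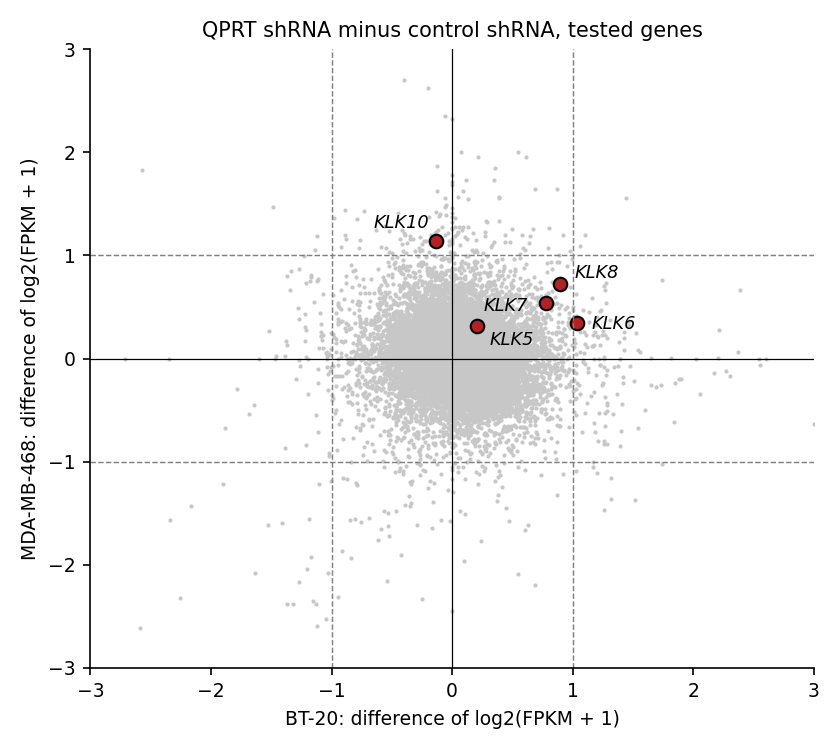
Knockdown difference of log2(FPKM + 1), QPRT shRNA minus control, in BT-20 (horizontal) and MDA-MB-468 (vertical) for the tested genes (grey; 1 gene lies outside the range), with the 5 members in red and dashed lines at 2-fold. KLK5, KLK6, KLK7 and KLK8 lie above 0 on both axes, and KLK10 lies at -0.14 and 1.14.

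Neighbouring pairs show which genes kept their proportion to KLK6. The level of KLK6 over KLK7 was 18.2 (95% counting interval 13.2 to 25.8) and 19.1 (15.2 to 24.3) in the control and QPRT shRNA libraries of BT-20. The same ratio was 17.2 (12 to 25.4) and 13.2 (9.91 to 18) in those of MDA-MB-468. These 4 intervals overlap, so the pair stood in a like proportion in every library at this precision. KLK6 over KLK8 went from 5.13 (3.99 to 6.7) to 5.45 (4.57 to 6.56) in BT-20 cells and from 19 (11.2 to 35) to 12.3 (8.33 to 19) in MDA-MB-468 cells. The intervals of both shRNAs overlap within each line, and those of MDA-MB-468 lie above those of BT-20. KLK5 over KLK6 went from 5.32 (4.9 to 5.79) to 2.97 (2.8 to 3.16) in BT-20 cells and from 8.25 (7.52 to 9.06) to 8.05 (7.41 to 8.77) in MDA-MB-468 cells. The nearest neighbour on that side therefore did not keep its proportion to KLK6 in BT-20, whereas in MDA-MB-468 the intervals of both shRNAs overlap.

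Likeness to KLK6 was also measured over all 4 libraries as the Euclidean distance between log2(FPKM + 1) profiles centred on their means, among 14320 other genes. KLK7 was the nearest member, at place 88 (distance 0.456). KLK5 stood at place 6124 (1.18), KLK8 at 6713 (1.23) and KLK10 at 13958 (3.76). The 5 nearest genes lay on other chromosomes. They were the non-coding AC005838.2 (distance 0.102), PRRG1 (0.219), which encodes a transmembrane Gla protein, AL590326.1 (0.22), LINC01237 (0.225) and ATP13A3 (0.227), which encodes a P-type ATPase. ATP13A3, the most abundant of these, had 39.9, 68.5, 28.7 and 32.4 FPKM in the order of libraries used above. AC005838.2, AL590326.1 and LINC01237 were low, at 0.288 to 3.31 FPKM, and each was highest in BT-20 with QPRT shRNA, as KLK6 was. A low gene passes a filter on the mean more readily if some library is high, so the filter favours such patterns. With a pseudocount of 0.1, or with a mean of at least 5 FPKM, 2 of these 5 genes remained among the nearest.

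The remaining kallikrein genes were nearly silent. None of 10 (KLK1, KLK2, KLK3, KLK4, KLK9, KLK12, KLK14, KLK15 and KLKP1 of the cluster, and KLKB1, plasma kallikrein on chromosome 4) reached a mean of 1 FPKM. KLK2, KLK3, which encodes prostate-specific antigen, KLK9, KLK12 and KLKP1 were listed at 0 in all 4 libraries. KLK14 had 0, 3, 6 and 8 fragments. KLK9, which lies between KLK8 and KLK10, and KLK12, between KLK11 and KLK13, were thus among those listed at 0 while genes on either side of KLK9 were detected.

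Outside the kallikrein run, 37 protein-coding genes lie within 500 kb of its ends, and 16 of them passed the expression filter. None changed 2-fold on the log2(FPKM + 1) scale in either line, and the median differences were -0.03 (BT-20) and 0.00 (MDA-MB-468). In BT-20 they ranged from -0.58 (CLEC11A) to 0.95 (ASPDH, an aspartate dehydrogenase domain gene). ASPDH, with 3.78 and 8.24 FPKM from 25 and 56 fragments, had a fragment ratio of 2.18 (95% counting interval 1.34 to 3.65). In MDA-MB-468, where 4 of the 16 genes were listed at 0 in both libraries, they ranged from -0.21 (LRRC4B) to 0.77 (CTU1). CTU1, which encodes a tRNA thiolation enzyme and lies next to KLK14, went from 9.37 to 16.7 FPKM, a ratio of 1.78 (1.5 to 2.12), but from 9.61 to 8.74 FPKM in BT-20.

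**Figure D4:**
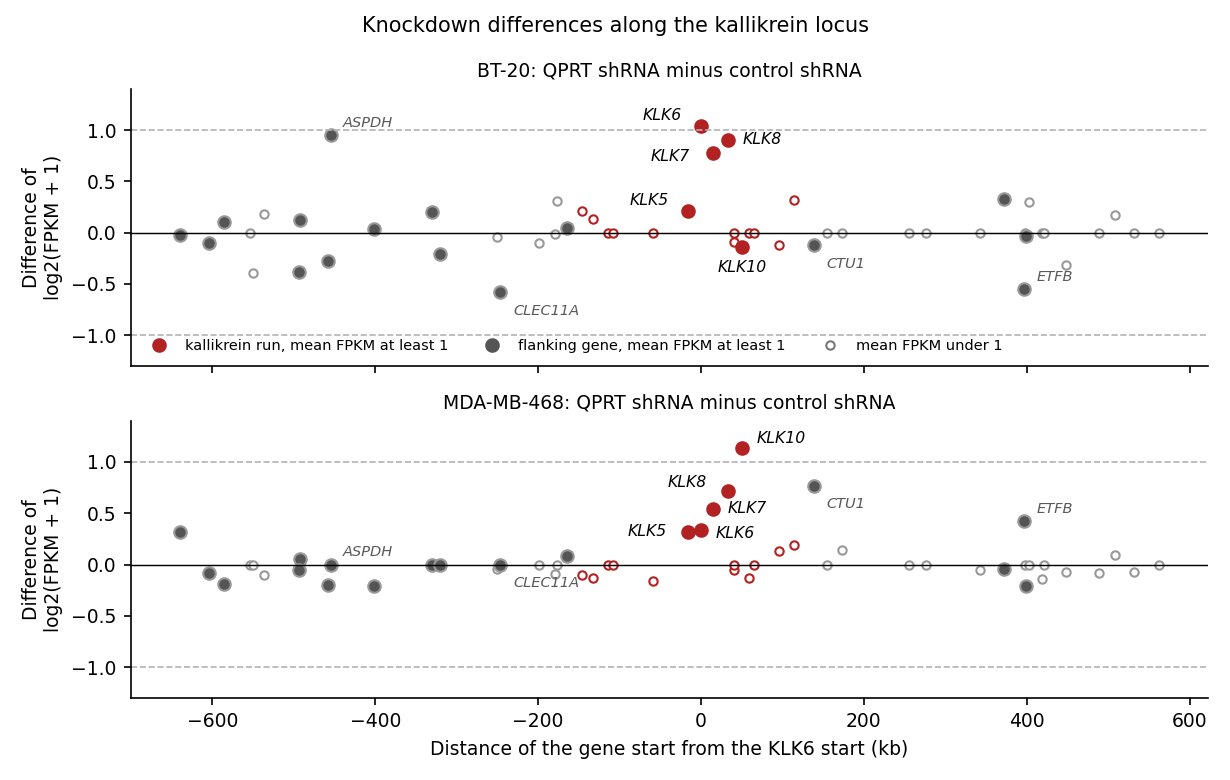
Difference of log2(FPKM + 1), QPRT shRNA minus control shRNA, against the distance of each gene start from that of KLK6 in kb, for BT-20 (top) and MDA-MB-468 (bottom), with the kallikrein run in red, flanking genes in grey, open points under a mean of 1 FPKM and dashed lines at 2-fold. KLK6, KLK7 and KLK8 form the highest group in BT-20 together with ASPDH (0.95), and KLK10 (1.14) is the highest in MDA-MB-468, with CTU1 (0.77) above KLK8 (0.72).

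Some fragments of the members may belong to overlapping genes. Strand-specific counting, which bears only on pairs on opposite strands, is not stated. KLK8 shares 40.1% of its 1865 exonic bases with AC011473.4 on the same strand, which was listed at 0 to 0.306 FPKM. KLK6 shares 20.3% and KLK5 12.2% of their exonic bases with AC011483.2 on the opposite strand, at 0 to 0.713 FPKM. How fragments were divided within these pairs was not tested.

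The comparison of MDA-MB-468 with BT-20 asks how far the lines differ at the same shRNA. KLK10 was much higher in MDA-MB-468, KLK8 was much lower, and KLK6 was lower, most clearly with QPRT shRNA. With control shRNA the fragment ratio of MDA-MB-468 over BT-20 was 18 for KLK10 (95% counting interval 7.46 to 56.9) and 0.203 for KLK8 (0.105 to 0.364). With QPRT shRNA it was 75.7 for KLK10 (25.6 to 370) and 0.205 for KLK8 (0.129 to 0.314). The KLK6 ratio was 0.751 (0.668 to 0.844) with control shRNA and 0.463 (0.421 to 0.51) with QPRT shRNA. KLK7 had 0.796 (0.483 to 1.3) and 0.669 (0.46 to 0.965).

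On the log2(FPKM + 1) scale, KLK10 passed 2-fold upwards and KLK8 downwards with control shRNA, by 2.24 and -1.86, where 18.3% of all tested genes were at least 2-fold higher and 13.2% lower in MDA-MB-468. With QPRT shRNA, KLK10 (3.52) passed upwards, and KLK8 (-2.03) and KLK6 (-1.09) downwards, where 17.4% were higher and 13.9% lower. KLK5, by contrast, differed by only 0.22 and 0.33. For the limma fit between the lines, the control and QPRT shRNA libraries of a line stood in for its replicates. The p-values of this fit therefore do not measure the spread between cultures of a line. Of the 5 members, 3 passed a limma adjusted p of 0.05, where 55.1% of the tested genes did. This share of the members was close to that of all genes. The limma differences were 2.88 for KLK10 (SE 0.293, adjusted p = 2.27e-21), -1.95 for KLK8 (SE 0.265, adjusted p = 2.29e-12) and -0.75 for KLK6 (SE 0.208, adjusted p = 0.000911). KLK5 had 0.27 (limma adjusted p = 0.217) and KLK7 -0.35 (limma adjusted p = 0.29). KLK10 passed the expression filter only through MDA-MB-468, so its call between the lines is partly fixed by the filter. With no filter the limma adjusted p was 0.265 for KLK10 and 0.151 for KLK8, while their differences stayed at 2.88 and -1.95. No gene of the table was called in that setting, so the loss was not particular to these members. The KLK6 call was lost in limma without the shRNA term (adjusted p = 0.0687), and the limma adjusted p of KLK6 ranged from 0.000135 to 0.495 over all settings.

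The 3 KLK10 fragments of the BT-20 library with QPRT shRNA stood at 1.88% of the mean KLK10 level in MDA-MB-468. In the same library, the level of 18 genes at 50 FPKM or more in MDA-MB-468 was, at the median, 0.656% of that in MDA-MB-468. These genes were chosen for being under 0.5 FPKM in BT-20 with control shRNA, so that library gives no such comparison, and the part of carry-over between libraries in the KLK10 values was not tested.

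Other genes of kallikrein biology were examined as fixed lists, described by counts and medians. Of 9 genes for inhibitors of these peptidases, 3 passed the expression filter, and SPINK6 and SPINK9 were listed at 0 in all libraries. SPINK5 had 2 or 3 fragments in each. A2M, which encodes the broad protease inhibitor alpha-2-macroglobulin, was the only one to pass 2-fold with the knockdown, from 105 to 34.3 FPKM in MDA-MB-468 (-1.58 on the log2(FPKM + 1) scale), against 0.724 and 0.705 FPKM in the BT-20 libraries. Its limma adjusted p over both lines was 0.184, and 0.866% of all tested genes passed 2-fold downwards in MDA-MB-468. The median of the 3 inhibitors was -0.02 (BT-20) and -0.14 (MDA-MB-468). The BT-20 median is the value of A2M, which had 7 fragments in each BT-20 library and passed the filter through MDA-MB-468.

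Of 13 genes for substrates, receptors and activating proteases, 8 passed the filter and none passed 2-fold with the knockdown in either line. The medians were 0.07 (BT-20) and 0.19 (MDA-MB-468). F2R and PLAU passed the filter through MDA-MB-468 and had 5 and 16, and 4 and 2, fragments in BT-20. F2RL3 passed it through BT-20 and had 11 and 0 fragments in MDA-MB-468. The scale shrinks the differences of such low values, so the count says little about these genes there. ST14, which encodes the membrane protease matriptase, had 158, 153, 197 and 223 FPKM, and F2RL1, which encodes the protease-activated receptor PAR2, had 14.1, 16.6, 40.6 and 49 FPKM. Of 7 genes for steroid and related nuclear receptors, several of which are known regulators of kallikrein genes, 4 passed the filter and none passed 2-fold with the knockdown in either line. PGR, which encodes the progesterone receptor, was listed at 0 in all 4 libraries.

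Squamous differentiation genes are often expressed with kallikreins in stratified epithelium. Of 28, 13 passed the filter. With QPRT shRNA, 5 of them had higher values in BT-20 cells (56.4% of all tested genes did) and 9 in MDA-MB-468 cells (51.5% of all). The median was -0.06 (BT-20) and 0.23 (MDA-MB-468). KRT6B, GRHL3 and CALML5 passed through MDA-MB-468 and had 2 to 14 fragments in the BT-20 libraries. Their signs in BT-20 are within counting error, and the BT-20 count and median include them. In BT-20, KRT13, a keratin of mucosal epithelium, passed 2-fold upwards (1.01 to 3.77 FPKM, 12 and 46 fragments). KRT13 passed the filter through BT-20 with QPRT shRNA, so this upward call is partly fixed by the filter. In MDA-MB-468 it had 0 and 2 fragments, and its sign is within counting error. The MDA-MB-468 count includes KRT13, and the median of 0.23 is its value. TGM1, the keratinocyte transglutaminase, passed 2-fold downwards in BT-20 (13.8 to 6.22 FPKM). In MDA-MB-468, KRT6B (4.56 to 11.8 FPKM) and KRT16 (56.2 to 125 FPKM), keratins of activated epidermis, passed upwards. Of all tested genes, 1.05% passed upwards and 0.649% downwards in BT-20, and 1.03% upwards in MDA-MB-468. KRT1, LORICRIN, LCE3D, RHCG and SPRR2D were listed at 0 in all libraries. No gene of these 4 lists passed the adjusted p of the limma knockdown fit.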

How the data were processed

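RNA was sequenced from 4 libraries on an Illumina NovaSeq system after TruSeq preparation. The authors deposited FPKM values per Ensembl gene, and per the labels TopHat2 2.0.12 and HTSeq 0.6.1 were used. The build and annotation are not given in the sources used here, and the DESeq2 comparison of the study was not repeated, since no counts were used as the main values. Fragments were recovered as FPKM times the rounded mean transcript length in GENCODE 29 times the library total. Of the values above 0, 87.3% to 87.6% came out whole (within 0.02), as did 97.6% to 97.8% of those of single-transcript genes. The length of KLK6 (1221 bases) and of KLK14 (1097) was fitted, because the annotated one gave no whole numbers. Of rows with the same symbol, 36 were dropped.

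Differences of log2(FPKM + 1) were computed where the mean FPKM reached 1, and 2-fold was the threshold. Limma 3.58.1 (R 4.3.3) was fitted to all tested genes with line and shRNA as terms, an eBayes trend and Benjamini-Hochberg adjustment. Its prior degrees of freedom were infinite, so the spread of a gene was taken from genes of like expression. Counting intervals are exact (Clopper-Pearson, 95%) and, like the floor of 3 fragments, cover counting error only, since reads carried no molecular identifiers. The numbers of fragments limit the precision of KLK7, KLK8 and KLK10. Alternatives were the pseudocount, scaling, expression filter, threshold, correction for the trend on GC content and length (lowess fraction 0.3), limma-voom, the block and the trend. Promoters were RefSeq windows. Values of some single genes of the lists are not reported here, and the counts and medians include them. The members and lists were chosen with earlier results of these data known. The named genes were the 7 members, QPRT, the 5 genes nearest to KLK6, and in each list and the flanks the genes past 2-fold or defining genes at 0. SPINK5, ST14, F2RL1, F2R, F2RL3, PLAU, COL1A1 and the flanking genes ASPDH, CTU1, CLEC11A and LRRC4B were given values after these were seen. Scripts used Python 3.11.15 with scipy 1.17.1, statsmodels 0.14.6, pandas 2.3.3, numpy 2.4.6 and matplotlib 3.10.9.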

Additional observations from a re-analysis of the deposited data

Results flagged for a closer look

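KLK10 and KRT16 had knockdown differences of opposite sign in the 2 lines. KLK10 differed by -0.14 in BT-20 and by 1.14 in MDA-MB-468 on the log2(FPKM + 1) scale, and the BT-20 value rests on 5 and 3 fragments. KRT16 differed by -0.22 in BT-20 (74.7 to 64.1 FPKM, 804 and 708 fragments) and by 1.14 in MDA-MB-468 (56.2 to 125 FPKM, 623 and 1308 fragments). The difference between the lines was not tested for either gene, since each group had 1 library.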

How the results depend on the processing

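No result changed direction. Of 258 values for single genes under alternatives, 243 stayed on their side of the threshold or within the counting error, 10 moved, 4 lost and 1 gained the adjusted p. In BT-20 the number of members past 2-fold went from 1 to 2 without the GC content and length trend (KLK6 and KLK8), to 3 at 1.5-fold, and to 0 with the added upper quartile scaling over genes above 0 in any library, which moved the median of all genes by -0.09. In MDA-MB-468 it went from 1 to 2 at 1.5-fold and to 0 with a mean FPKM of at least 5, where KLK10 was no longer tested. Between the lines with control shRNA it went from 2 to 1 with that filter, for the same reason. Of the 5 genes nearest to KLK6, 2 were shared with a pseudocount of 0.1 and 2 with a mean FPKM of at least 5.

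The limma knockdown called 90 genes, against 2 without the GC content and length trend, 50 with limma-voom, 45 with a mean FPKM of at least 5, 0 without the block for cell line (17 at an unadjusted p under 0.05) and 0 with no filter (813 unadjusted). Differences correlated with GC content across 14232 genes with a Spearman rho of -0.272 (BT-20) and 0.284 (MDA-MB-468), and the members had 54.3% to 59.7% GC beside a median of 50.1%. Between the lines, no filter took the called genes from 7893 to 0 (7483 unadjusted) and the called members from 3 to 0. The prior degrees of freedom, infinite in the main fit, were 0.937 with no filter for both coefficients. For the knockdown they were 2.31 without the block and 8.28 without the GC content and length trend. At such values the spread of a gene is taken less from other genes. The cause of the changed counts was not tested beyond this and the fewer or added genes of each filter. KLK5 gained the call between lines without the GC content and length trend (limma adjusted p = 0.0249). The block for cell line already pairs the libraries of a line, and the labels carry no replicate numbers for any other pairing. With 1 residual degree of freedom, no library could be left out with a test.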

Other observations

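TP63 encodes the master transcription factor of basal and squamous epithelium. It had higher values with QPRT shRNA in both lines, as did 26.2% of all tested genes. It had 1.39 and 2.74 FPKM in BT-20 (31 and 63 fragments) and 0.998 and 3.54 FPKM in MDA-MB-468 (23 and 77 fragments), differences of 0.65 and 1.19 on the log2(FPKM + 1) scale. Its limma adjusted p over both lines was 0.195, and 1.03% of all tested genes passed 2-fold upwards in MDA-MB-468. Of the other keratinocyte markers, KRT10 alone passed the expression filter, with differences of -0.12 (BT-20, 34.3 to 31.4 FPKM) and 0.18 (MDA-MB-468, 37.1 to 42 FPKM). KRT1 and LORICRIN were listed at 0 in all 4 libraries, and FLG had 2 to 4 fragments in each. IVL, which encodes the envelope protein involucrin, had 21.6 and 20.8 FPKM in BT-20 while its MDA-MB-468 levels were 4.71 FPKM with the control hairpin and 1.98 FPKM with that against QPRT (111 and 44 fragments), opposite in sign to KRT16 and KRT6B in that line.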
